A study of Arabidopsis thaliana with 9 samples.

Results

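RNA sequencing of Arabidopsis thaliana leaves placed 43 of the 27655 genes in the deposited table at no more than 0.5 times their wild-type level in each of 2 mutant genotypes that carry lesions in the histone methyltransferase genes ATXR5 and ATXR6. The 43 genes were chosen by their measured values: a mean of at least 3 TPM (a transcript level scaled to gene length and library total) over the wild-type libraries, and a mean of at most 0.5 times that value in each mutant. Of 15180 genes with a wild-type mean of at least 3 TPM, 47 met these bounds. The rule also leaves out 15 named loci, of which 4 had met them: the flowering repressor MAF5, the germin-like gene GER3, the expansin gene EXPA16 and the clock-associated demethylase gene JMJD5. The difference of each mutant from wild type is therefore what selected the genes and is given as a description. The rule set no bound on the difference between the 2 mutants, but it limits it, since a gene lowered in 1 mutant alone cannot enter, and a single outlying library can bring a gene in.

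Leaves of plants aged 3 weeks, kept at 22 °C under long days (16 h light, 8 h dark), were sampled in 3 genotypes with 3 libraries each. The control was wild type (WT), titled Col. The mutant called hyp/hyp here is labelled atxr5;atxr5;atxr6hyp;atxr6hyp, and hyp/c-1 is labelled atxr5;atxr5;atxr6hyp;atxr6c-1, so that both mutants were homozygous for atxr5 and carried at least 1 copy of atxr6hyp, and differed in the second atxr6 allele. The labels do not say whether libraries of 1 genotype came from separate plants, so p-values measure only the spread between these libraries, which may be technical.

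ATXR5 and ATXR6 add a single methyl group to a lysine of histone H3, a mark found in silent chromatin and tied to the control of DNA replication and transposon silencing. The lowered genes are of mixed function, with 4 on a list of wall-loosening genes, 1 on a wax list and 1 on a clock list. Xyloglucan endotransglucosylase/hydrolases (XTH) cut and rejoin the xyloglucan chains that tether cellulose in the wall, wax enzymes build the cuticle of the epidermis, and nitrilases, thaumatin-like proteins, defensins and protease inhibitors are linked to defence.

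The sequencing depth recovered from the table was 21289647 to 38766556 reads per library. The defining mesophyll genes were abundant in every library, with a summed level of 59770 to 61248 TPM in Col, 47128 to 52436 in hyp/hyp leaves and 48499 to 61024 in hyp/c-1. Sums of 4 genes each were higher in all mutant than in all Col libraries for phloem, at 274 to 293 TPM in Col, 345 to 449 in hyp/hyp leaves and 329 to 482 in hyp/c-1, and for senescent leaf, at 36.8 to 39.2, 52.1 to 65.9 and 47.6 to 76.1 TPM. The xylem sum was 29.9 to 39.3 TPM in Col, 44.6 to 56.7 in hyp/hyp leaves and 51.9 to 60.7 in hyp/c-1, and the trichome sum 1.63 to 1.96, 2.18 to 2.98 and 2.72 to 3.26 TPM. Shoot meristem genes summed to 0 to 0.0412 TPM in Col, 0.392 to 0.591 in hyp/hyp leaves and 0.252 to 0.635 in hyp/c-1, and flower organ genes to at most 4.19 TPM in any library. The guard cell sum was 51.9 to 60.1 TPM in Col, 52.0 to 57.2 in hyp/hyp leaves and 41.7 to 51.7 in hyp/c-1. In bulk tissue, fewer cells of a type and less RNA per cell cannot be told apart, and the part of these markers in the results was not tested.

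The upstream windows of 6 of the genes are printed because they stand for the groups described below: 3 members of the XTH family, the Myb-like gene RVE2, the wax gene CER1 and AT1G30250, the gene whose level differed most clearly between the mutants. Each is the 300 bases before the annotated gene start in RefSeq assembly TAIR10.1, read 5′ to 3′ on the strand of the gene. Capitals mark the evening element (AAAATATCT), the G-box (CACGTG), the telo-box (AAACCCTAA) and the TATA motif (TATAAA), searched on both strands. XTH17 lies at chr1:24256754-24257053 (plus strand), XTH19 at chr4:14830225-14830524 (minus strand), XTH33 at chr1:3481042-3481341 (minus strand), RVE2 at chr5:14753089-14753388 (minus strand), CER1 at chr1:418116-418415 (plus strand) and AT1G30250 at chr1:10647651-10647950 (minus strand).
XTH17: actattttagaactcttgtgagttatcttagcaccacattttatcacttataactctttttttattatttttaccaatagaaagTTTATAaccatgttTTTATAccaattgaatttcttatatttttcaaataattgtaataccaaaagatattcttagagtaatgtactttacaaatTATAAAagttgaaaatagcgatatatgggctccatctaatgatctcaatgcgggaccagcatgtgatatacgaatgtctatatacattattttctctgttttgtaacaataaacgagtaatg
XTH19: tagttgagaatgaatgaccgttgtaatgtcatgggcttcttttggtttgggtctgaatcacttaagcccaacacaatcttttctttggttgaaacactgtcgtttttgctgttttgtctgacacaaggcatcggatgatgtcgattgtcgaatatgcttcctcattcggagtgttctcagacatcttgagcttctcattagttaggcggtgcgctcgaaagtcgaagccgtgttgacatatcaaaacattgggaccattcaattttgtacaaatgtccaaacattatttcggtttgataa
XTH33: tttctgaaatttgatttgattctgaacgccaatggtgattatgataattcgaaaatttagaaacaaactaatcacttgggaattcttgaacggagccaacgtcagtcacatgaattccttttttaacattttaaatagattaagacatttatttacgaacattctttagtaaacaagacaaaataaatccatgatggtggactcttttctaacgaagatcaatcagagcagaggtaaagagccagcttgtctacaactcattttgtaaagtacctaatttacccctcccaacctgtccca
RVE2: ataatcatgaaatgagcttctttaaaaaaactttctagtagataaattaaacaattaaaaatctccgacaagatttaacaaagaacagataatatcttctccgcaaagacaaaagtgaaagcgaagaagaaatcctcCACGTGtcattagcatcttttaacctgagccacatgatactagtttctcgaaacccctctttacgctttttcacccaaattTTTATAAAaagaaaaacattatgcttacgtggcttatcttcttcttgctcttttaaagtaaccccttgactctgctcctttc
CER1: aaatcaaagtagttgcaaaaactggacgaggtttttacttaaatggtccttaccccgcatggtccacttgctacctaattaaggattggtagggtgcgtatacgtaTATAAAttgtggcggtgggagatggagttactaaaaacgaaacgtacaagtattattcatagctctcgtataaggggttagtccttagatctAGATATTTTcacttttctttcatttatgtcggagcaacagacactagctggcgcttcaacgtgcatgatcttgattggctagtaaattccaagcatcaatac
AT1G30250: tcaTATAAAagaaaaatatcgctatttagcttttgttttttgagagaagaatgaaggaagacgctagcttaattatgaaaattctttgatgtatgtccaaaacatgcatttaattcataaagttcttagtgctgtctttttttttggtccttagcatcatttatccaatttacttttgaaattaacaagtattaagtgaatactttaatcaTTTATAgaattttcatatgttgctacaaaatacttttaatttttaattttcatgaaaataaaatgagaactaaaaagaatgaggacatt

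The TATA motif was the most frequent of the 8 motifs searched, present in the windows of 28 of 42 genes (66.7%) against 51.0% of 15120 genes with a Col mean of at least 3 TPM and 52.9% of all 27444 genes searched. Of the printed windows, those of XTH17, RVE2, CER1 and AT1G30250 hold it, and those of XTH19 and XTH33 hold none of the marked motifs. The G-box was present in 4 windows (9.52%, against 7.92%): those of UGT85A3, DIN11, RVE2 and AT5G51790. The evening element, a site of clock factors, was present in 1 window (2.38%, against 3.16%), that of CER1, where it lies 102 bases upstream on the reverse strand. The telo-box was present in 1 window (2.38%, against 2.5%), that of AT4G25780. The shares for 4 further motifs were 28.6% against 31.8% for the W-box (TTGACC or TTGACT), 14.3% against 15.4% for the C-repeat (CCGAC), 11.9% against 19.0% for site II (TGGGCC) and 4.76% against 8.28% for the CCA1-binding site (AAAAATCT). A match describes these letters in this window and is not a measured site. The windows of TRFL8 and AT2G42170 overlap a neighbouring gene.

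**Figure D1:**
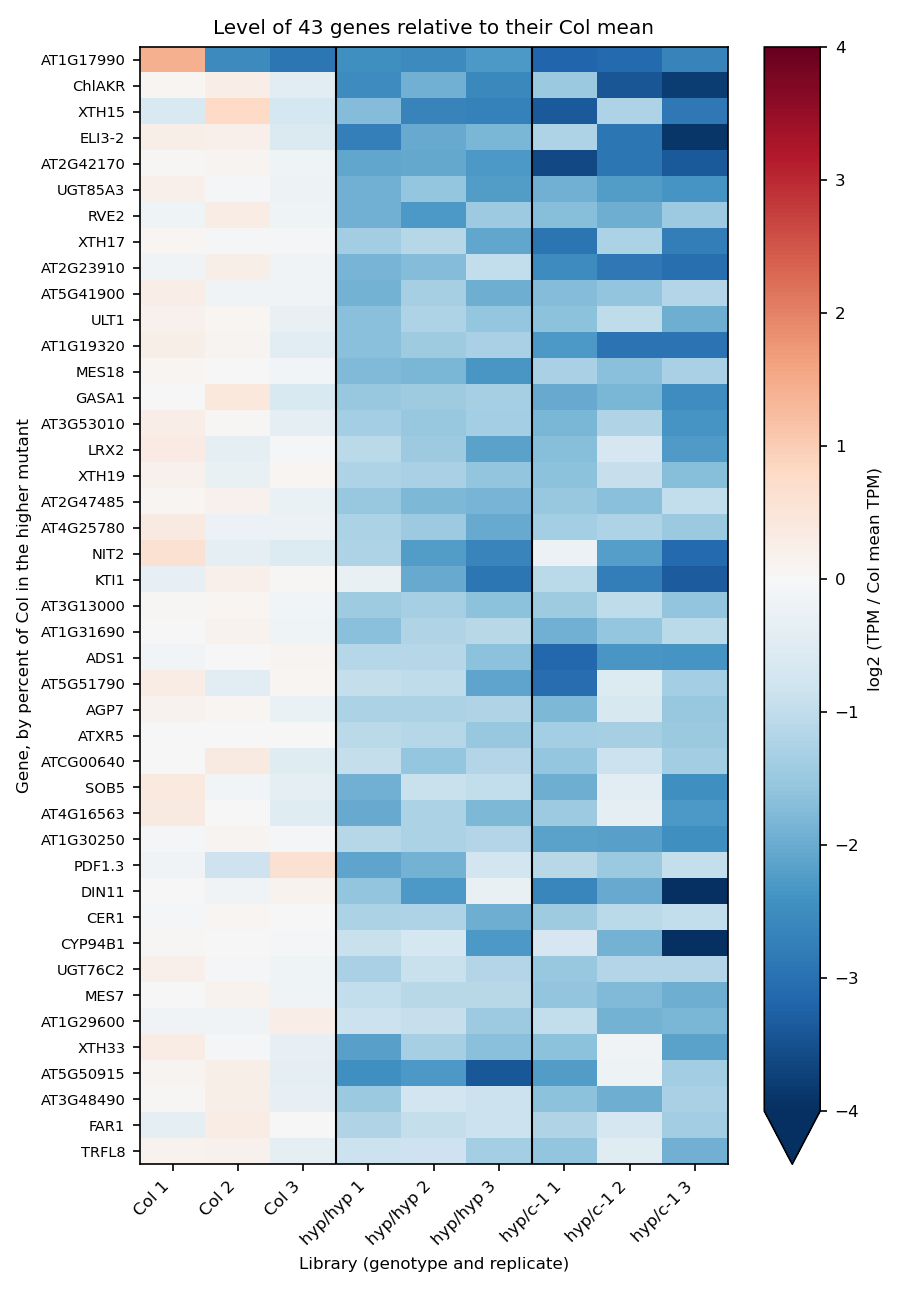
Level of each of the 43 genes in each of the 9 libraries, as log2 of TPM over the gene's Col mean (colour, with values under -4 drawn at the end of the scale). Rows run from the lowest to the highest percent of Col in the higher mutant; nearly all mutant cells are blue, and the pale cells in hyp/c-1 replicate 2 and the single red cell of AT1G17990 in Col replicate 1 mark libraries that stand apart.

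The 43 genes were mostly of low to moderate level in Col. Their Col means ran from 3.25 to 1214 TPM with a median of 8.56, against a median of 17.4 over all genes with a Col mean of at least 3 TPM, and 24 genes were under 10 TPM, 13 between 10 and 20 and 6 at 20 or more. The median gene kept 36.5% of its Col mean in hyp/hyp leaves and 36.0% in hyp/c-1. At most 0.25 times the Col mean was left for 6 genes in hyp/hyp leaves and 14 in hyp/c-1, of which 5 were shared. In 36 of the 43 genes every mutant library lay below every Col library, which held for 12.6% of genes with a Col mean of at least 3 TPM. With limma on log2(TPM + 1), at an adjusted p-value under 0.05 and a log2 difference of at least 1, 30 of 43 passed as lower in hyp/hyp than in Col, where 0.503% of the 17682 genes tested did, and 37 passed as lower in hyp/c-1, where 0.583% did; 26 passed in both. These counts follow from the choice of the genes. The higher calls made up 2.36% of genes tested in hyp/hyp leaves and 2.61% in hyp/c-1, and none of the 43 was among them.

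The bound itself was crossed by small steps. Just inside it, the higher mutant mean was 49.6% of Col for AT3G48490, 49.9% for the fatty acid reductase gene FAR1 and 49.97% for TRFL8, a gene of the telomere-repeat-binding-factor-like family. Just outside were the response regulator gene RR16 at 50.1%, AT5G24215 at 50.6% and AT3G24420 at 50.8%. When each library was left out in turn, 25 of the 43 genes met the rule every time. Without Col replicate 1, 8 genes no longer met the rule, namely XTH33, AT1G17990, TRFL8, NIT2, AT3G48490, AT4G16563, SOB5 and AT5G50915. The number was 7 without Col replicate 2 and 7 without hyp/c-1 replicate 3. Without hyp/c-1 replicate 2 all 43 stayed and 57 genes met the rule.

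ATXR5, the gene mutated in both genotypes, was itself among the 43. It measured 4.24, 4.38 and 4.23 TPM in the Col libraries, 2.05, 1.96 and 1.496 in hyp/hyp leaves and 1.68, 1.70 and 1.53 in hyp/c-1. The 2 mutants lay well below Col and overlapped each other, with means at 42.8% and 38.2% of Col, and the log2 difference between them was -0.10 (SE 0.11, adjusted p = 0.58 by limma).

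GASA1, which encodes a small cysteine-rich peptide of a gibberellin-regulated family, had the highest TPM of the 43, on a scale that divides reads by the gene span. Its level was 1209.6, 1628 and 804 TPM in Col, 428, 455 and 485 TPM in hyp/hyp leaves and 299.6, 343 and 216 TPM in hyp/c-1. The 3 genotypes did not overlap, with hyp/c-1 the lowest, and the Col libraries differed among themselves by 412 TPM (SD, n = 3). Between the mutants the log2 difference was -0.69 (SE 0.24), with an adjusted p of 0.117 by limma, so it did not pass.

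The other 5 genes of highest Col level were an aspartyl protease gene, 2 genes of uncharacterized products, a methyl esterase gene and an arabinogalactan protein gene. The aspartyl protease gene AT4G16563 measured 86.3, 67.2 and 48.2 TPM in Col, 16.7, 28.1 and 19.4 in hyp/hyp leaves and 24.4, 50.7 and 13.6 in hyp/c-1, so that 1 hyp/c-1 library reached the Col range. MES18, of the methyl esterase family, measured 65.2, 62.2 and 57.7 TPM in Col, 18.3, 17.2 and 12.3 in hyp/hyp leaves and 24.9, 19.5 and 25.1 in hyp/c-1. All hyp/c-1 libraries of MES18 lay above all hyp/hyp libraries, with a log2 difference of 0.52 (SE 0.15, adjusted p = 0.080 by limma). AGP7, which encodes a cell-surface arabinogalactan protein, was at 50.7, 48.9 and 38.0 TPM in Col, a tight 19.3, 19.2 and 19.8 in hyp/hyp and a wide 13.1, 29.5 and 16.1 in hyp/c-1. AT3G48490 averaged 22.8 ± 4.44 TPM in Col, 11.3 ± 2.71 in hyp/hyp leaves and 7.47 ± 1.75 in hyp/c-1 (SD, n = 3). MES18 shares 93 bp with AT5G58300 on the opposite strand and 355 bp with an annotated long non-coding RNA, and whether counting used strand is not given in the sources used here.

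**Figure D2:**
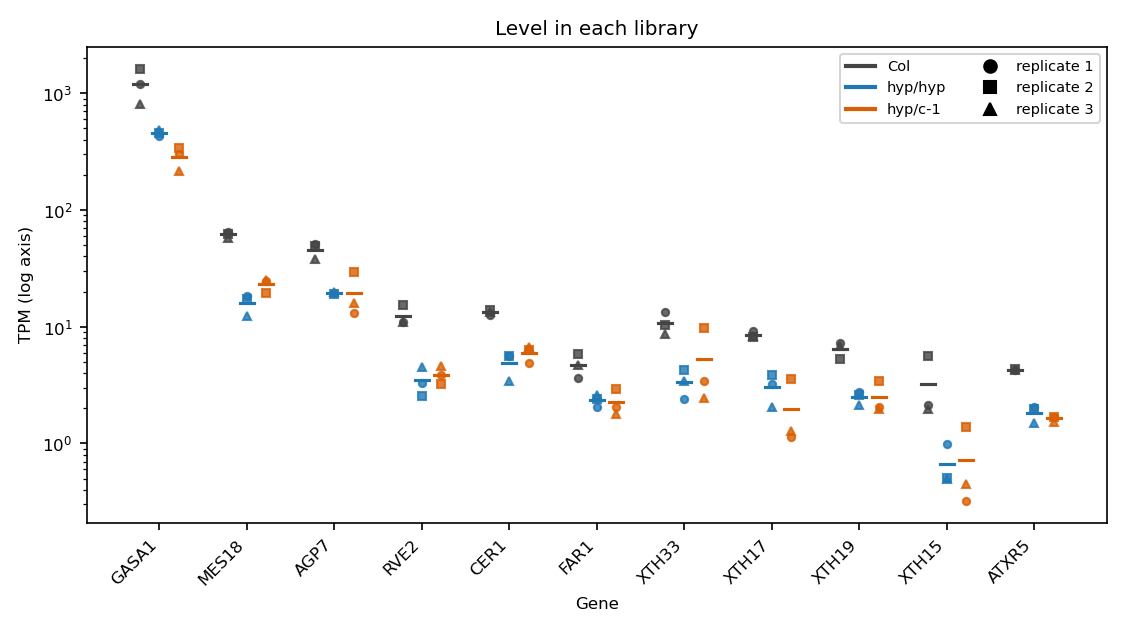
TPM (log axis) of 11 of the genes in each library; colours are genotypes, symbols replicates and short lines genotype means. GASA1 has a Col mean of 1214 TPM against 456 in hyp/hyp leaves and 286 in hyp/c-1, while the squares of hyp/c-1 replicate 2 stand above the other hyp/c-1 libraries for AGP7, XTH33, XTH17, XTH19 and XTH15.

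The only protein family with more than 2 named members among the 43 was that of the xyloglucan endotransglucosylase/hydrolases. XTH17 measured 9.14, 8.24 and 8.31 TPM in Col, 3.24, 3.89 and 2.03 in hyp/hyp leaves and 1.14, 3.55 and 1.27 in hyp/c-1. XTH19 measured 7.32, 5.25 and 6.90 TPM in Col, 2.74, 2.62 and 2.15 in hyp/hyp leaves and 2.07, 3.46 and 1.99 in hyp/c-1. Both genes were apart from Col in every mutant library, and the mutants overlapped. XTH33 was at 13.3, 10.4 and 8.68 TPM in Col, 2.42, 4.27 and 3.41 in hyp/hyp leaves and 3.45, 9.83 and 2.46 in hyp/c-1, where replicate 2 reached the Col range. XTH15 was at 2.14, 5.64 and 1.98 TPM in Col, with Col replicate 2 far above the others, against 0.988, 0.506 and 0.497 in hyp/hyp leaves and 0.320, 1.38 and 0.448 in hyp/c-1. XTH15 shares 382 bp with AT4G14120 on the opposite strand, and 1.43% of the 50-base stretches of XTH19 recur elsewhere, mostly in XTH18.

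These 4 genes were set against a list of 24 XTH and expansin genes that loosen the wall. In hyp/hyp 7 of 24 were called lower than in Col, among them EXPA16, XTH16 and XTH31 beside the 4 chosen genes, and 1 was called higher, the expansin gene EXPA8. In hyp/c-1 4 were called lower (XTH15, XTH17, XTH19 and EXPA16) and 1 higher, again EXPA8; without hyp/c-1 replicate 2 the lower count was 8, and without hyp/c-1 replicate 3 the higher count was 0. EXPA8 was also not called in hyp/hyp when Col replicate 1 was left out, with no expression minimum, or with quantile or median-of-ratios scaling. With a mean of at least 5 TPM, which leaves fewer genes tested, the lower counts were 3 in hyp/hyp leaves and 1 in hyp/c-1. Over all genes tested, the called shares were 0.503% lower and 2.36% higher in hyp/hyp leaves, and 0.583% and 2.61% in hyp/c-1. The 4 chosen genes and EXPA16 had met the bounds of the rule, so their lower calls follow from it. That covers every lower call in hyp/c-1, and all in hyp/hyp but those of XTH16 and XTH31. The median log2 difference of the list was -0.35 in hyp/hyp leaves and -0.15 in hyp/c-1, against 0.06 and -0.02 over all genes tested. The 3 XTH genes of highest level on the list were not called in either mutant: in Col, hyp/hyp and hyp/c-1, XTH22 averaged 436, 379 and 328 TPM, XTH4 432, 262 and 225 TPM, and XTH24 419, 581 and 462 TPM. XTH4 had log2 differences of -0.71 (SE 0.17, adjusted p = 0.0153) and -0.96 (SE 0.17, adjusted p = 0.00372) by limma, under the bound of 1. By limma EXPA1 and EXPA4 were higher, also under that bound. EXPA1 averaged 165, 315 and 345 TPM in the same order, with differences of 0.93 (SE 0.23, adjusted p = 0.020) and 0.999 (SE 0.23, adjusted p = 0.0146). EXPA4 averaged 13.7, 20.6 and 26.2 TPM, with 0.56 (SE 0.11, adjusted p = 0.00699) and 0.88 (SE 0.11, adjusted p = 0.000604). Of the 24 list genes, 18 had a negative difference for hyp/hyp leaves and 17 for hyp/c-1. These counts and the list medians include the genes that had met the bounds. Other wall and surface genes among the 43 were LRX2, a leucine-rich repeat extensin, at 6.04 ± 1.44 TPM in Col, 2.14 ± 0.732 in hyp/hyp leaves and 2.302 ± 1.35 in hyp/c-1, and the putative carbohydrate esterase gene AT3G53010 at 3.66 ± 0.825, 1.38 ± 0.0951 and 1.12 ± 0.449 TPM (SD, n = 3).

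Lipid enzymes formed another group, described together for their annotation alone. CER1, which makes the alkanes of the cuticular wax, measured 12.5, 14.0 and 13.5 TPM in Col, 5.59, 5.62 and 3.42 in hyp/hyp leaves and 4.94, 6.34 and 6.75 in hyp/c-1. The mutants overlapped and all lay under the Col range. FAR1, a fatty acid reductase that forms primary alcohols, measured 3.62, 5.85 and 4.71 TPM in Col, 2.06, 2.42 and 2.59 in hyp/hyp leaves and 2.05, 2.94 and 1.80 in hyp/c-1, and it shares 1310 bp with AT5G22505 on the opposite strand. ADS1, an acyl desaturase, measured 8.11, 8.86 and 9.48 TPM in Col, 3.96, 3.97 and 2.82 in hyp/hyp leaves and 1.003, 1.76 and 1.73 in hyp/c-1, and here the 3 genotypes were apart.

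Of 11 tested genes of a cuticular wax list of 13, all 11 had a negative log2 difference in both mutants, CER1 by the choice of the genes, where 41.0% of all genes tested were negative in hyp/hyp leaves and 53.4% in hyp/c-1. The medians of the list were -0.49 and -0.34, against 0.06 and -0.02 over all genes tested, and all 11 were also negative with quantile and with median-of-ratios scaling. Called lower were CER1, CER3 and KCS1 in hyp/hyp, where 0.503% of all genes tested were, and CER1 alone in hyp/c-1, where 0.583% were. None was called higher. When 1 library was left out, the lowest counts were 2 (for example without Col replicate 1) and 0 (for example without hyp/c-1 replicate 1). The summed level of 4 epidermal markers, of which CER6 is also on the wax list, moved with them, at 670 to 812 TPM in Col, 477 to 577 in hyp/hyp leaves and 566 to 652 in hyp/c-1, and its part in the lower wax genes was not tested. The epidermal regulator ATML1, alone among the 4 a transcription factor, averaged 26.7 TPM in Col, 21.8 in hyp/hyp leaves and 24.0 in hyp/c-1.

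RVE2, a Myb-like gene of the family of the morning clock regulators CCA1 and LHY, was the single gene of a clock list of 28 among the 43. The rule leaves out several other genes of that list, among them JMJD5, which had met the bounds. RVE2 measured 10.98, 15.4 and 11.1 TPM in Col, 3.31, 2.56 and 4.56 in hyp/hyp leaves and 3.84, 3.21 and 4.59 in hyp/c-1. All mutant libraries lay under the Col range and the mutants overlapped, with a log2 difference between them of 0.14 (SE 0.19, adjusted p = 0.66 by limma). Among its relatives CCA1 was called higher in both mutants, with means of 1.48 TPM in Col, 8.94 in hyp/hyp leaves and 15.6 in hyp/c-1, and RVE7 and RVE8 were called higher in hyp/c-1, with means of 4.05 and 0.763 TPM in Col against 12.8 and 4.28 TPM. Of 27 clock genes tested, 2 were called lower and 3 higher in hyp/hyp, and 5 lower and 8 higher in hyp/c-1. The called shares over all genes tested were 0.503% lower and 2.36% higher in hyp/hyp leaves, and 0.583% and 2.61% in hyp/c-1. The 2 lower in hyp/hyp were RVE2 and JMJD5, which had met the bounds, so these calls follow from the rule. Both were also among the 5 lower in hyp/c-1. Without Col replicate 1, with no expression minimum or with the replicate block, the lower count in hyp/hyp was 1. The labels give no hour of harvest, and its part in these values was not tested.

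Several other genes carry annotations linked to defence or stress, and they are described together for their annotation alone. AT1G19320, of the thaumatin superfamily, measured 11.5, 10.7 and 7.28 TPM in Col, 3.09, 3.67 and 3.98 in hyp/hyp leaves and 1.98, 1.27 and 1.27 in hyp/c-1, with no overlap between the 3 genotypes. ChlAKR, a chloroplast aldo-keto reductase that detoxifies reactive carbonyls, was at 4.06, 4.63 and 2.81 TPM in Col, 0.671, 1.02 and 0.644 in hyp/hyp leaves and 1.38, 0.358 and 0.275 in hyp/c-1. ELI3-2, an elicitor-activated alcohol dehydrogenase, was at 4.24, 4.17 and 2.39 TPM in Col, 0.541, 0.885 and 1.01 in hyp/hyp leaves and 1.54, 0.487 and 0.244 in hyp/c-1. ChlAKR and ELI3-2 thus shared the order of the hyp/c-1 libraries, replicate 1 being the highest. NIT2, a nitrilase, KTI1, a Kunitz trypsin inhibitor, and PDF1.3, a plant defensin, each had at least 1 mutant library inside the Col range: NIT2 at 5.60 TPM in hyp/c-1 replicate 1, KTI1 at 6.09 TPM in hyp/hyp replicate 1 and PDF1.3 at 8.08 TPM in hyp/hyp replicate 3, against lowest Col values of 4.53, 6.02 and 7.83 TPM. Of their 50-base stretches, 3.28% for NIT2 and 4.16% for PDF1.3 recur in another gene. AT4G25780, of the CAP superfamily of secreted cysteine-rich proteins, averaged 5.33 ± 1.35 TPM in Col, 1.83 ± 0.473 in hyp/hyp leaves and 2.08 ± 0.180 in hyp/c-1 (SD, n = 3).

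Genes that modify hormones or respond to them included MES7, CYP94B1, UGT76C2 and SOB5. MES7, an esterase that hydrolyses methyl salicylate, measured 12.03, 13.3 and 11.1 TPM in Col, 6.19, 5.59 and 5.59 in hyp/hyp leaves and 4.05, 3.57 and 3.16 in hyp/c-1, a stepwise order without overlap. CYP94B1, which oxidises the active jasmonate conjugate, measured 7.23, 6.99 and 6.75 TPM in Col, 3.79, 4.32 and 1.43 in hyp/hyp leaves and 4.36, 1.87 and 0.108 in hyp/c-1. The lowest of these, hyp/c-1 replicate 3, rested on 3 reads, at the floor of detection used here. UGT76C2, which glucosylates cytokinins, averaged 14.6 ± 1.99 TPM in Col, 6.76 ± 1.002 in hyp/hyp leaves and 6.04 ± 0.807 in hyp/c-1, and SOB5, named as a suppressor of a phytochrome mutant, 10.9 ± 3.09, 4.76 ± 1.67 and 4.31 ± 3.36 TPM (SD, n = 3). Of 12 listed genes of jasmonate synthesis and response none was among the 43, and the median log2 difference of the 10 tested was 0.16 in hyp/hyp leaves and -0.08 in hyp/c-1.

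Regulators of transcription were few. ULT1, a regulator of floral meristem activity that acts with trithorax-group proteins, measured 8.47, 8.08 and 6.24 TPM in Col, 2.41, 3.24 and 2.61 in hyp/hyp leaves and 2.46, 3.75 and 1.94 in hyp/c-1, where the mutants overlapped and lay under Col. AT5G50915, of the basic helix-loop-helix (bHLH) family, measured 13.7, 14.9 and 9.65 TPM in Col, 2.35, 2.59 and 1.21 in hyp/hyp leaves and 2.74, 11.1 and 4.91 in hyp/c-1. It was the lowest of the 43 in hyp/hyp relative to Col, at 16.1%, and all of its hyp/c-1 libraries lay above all hyp/hyp libraries, with a log2 difference of 1.11 (SE 0.37) that did not pass at an adjusted p of 0.112 by limma. The bHLH gene AT5G51790 averaged 5.03 ± 1.24, 2.08 ± 0.796 and 2.01 ± 1.42 TPM in Col, hyp/hyp and hyp/c-1 and shares 241 bp with an annotated long non-coding RNA on the opposite strand, and the zinc finger gene AT1G29600 averaged 5.43 ± 0.935, 2.61 ± 0.536 and 1.92 ± 0.721 TPM (SD, n = 3).

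Among the metabolic genes, UGT85A3, a glucosyltransferase gene, measured 4.71, 3.96 and 3.59 TPM in Col, 1.07, 1.39 and 0.877 in hyp/hyp leaves and 1.09, 0.877 and 0.792 in hyp/c-1. The alpha/beta hydrolase gene AT5G41900 measured 13.2, 9.94 and 9.95 TPM in Col, 2.99, 4.38 and 2.86 in hyp/hyp leaves and 3.28, 3.73 and 4.89 in hyp/c-1. Both were far under Col in every mutant library, and the mutants overlapped. The copper amine oxidase gene AT1G31690 kept 40.3% of its Col mean in hyp/hyp leaves and 36.0% in hyp/c-1, AT3G13000, of a family of unknown function, kept 36.5% and 40.2% and shares 292 bp with AT3G12990 on the opposite strand, and AT2G47485, of uncharacterized product, kept 30.2% and 38.9%. DIN11, a dark-inducible oxygenase gene, kept 44.8% and 15.4%, with hyp/hyp replicate 3 at 3.10 TPM close under its lowest Col value of 3.44 TPM. ATCG00640, an identifier that the reference table did not pair with a gene, kept 43.7% and 42.6%.

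AT1G17990, annotated as an oxidoreductase of the FMN-linked superfamily, entered the set through 1 library. It measured 9.78, 0.620 and 0.485 TPM in Col, 0.658, 0.626 and 0.735 in hyp/hyp leaves and 0.4001, 0.424 and 0.564 in hyp/c-1. Only Col replicate 1 was high, with 322 reads against 19 and 14 in the other Col libraries, and without it the gene does not meet the rule. All of its 50-base stretches (100%) recur in AT1G18020, which was listed at 0.336 to 0.794 TPM over the 9 libraries, so the value of AT1G17990 is uncertain.

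The 2 mutants were then compared with each other at these genes. The rule required both mutant means to be at most 0.5 times the Col mean, so genes lowered in 1 mutant alone were left out beforehand (XTH31, for example, averaged 1.07 TPM in hyp/hyp leaves and 5.10 in hyp/c-1), and the counts describe the genes that remained. Of the 43 genes 1 was called, lower in hyp/c-1 than in hyp/hyp, where 0.294% of genes tested were called lower and 0.226% higher. At an adjusted p under 0.05 whatever the size there were 6, all lower in hyp/c-1, where 0.922% of genes tested passed as lower and 1.92% as higher. The unadjusted p was under 0.05 for 11, but the share of all genes tested at that level was not computed, so nothing is drawn from this count. All hyp/c-1 libraries lay below all hyp/hyp libraries in 8 genes, against 12.5% of genes with a Col mean of at least 3 TPM, and above them in 2, against 11.6%, and the mutants overlapped in 33. The mean was lower in hyp/c-1 for 27 genes (62.8%, against 61.7%), and the median log2 difference was -0.12 against -0.06 over all genes tested. Without hyp/c-1 replicate 3 that median was 0.02.

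The gene called was AT1G30250, whose product is uncharacterized. It measured 43.2, 47.5 and 41.9 TPM in Col, 20.2, 18.5 and 19.8 in hyp/hyp leaves and 9.99, 9.80 and 8.03 in hyp/c-1. Each genotype was tight and the 3 did not overlap, with means at 44.1% of Col in hyp/hyp leaves and 21.0% in hyp/c-1. The log2 difference between the mutants was -1.001 (SE 0.10, adjusted p = 0.0189 by limma). It ran from -1.07 to -0.91 over the 18 alternative settings tried, with adjusted p-values from 0.00986 to 0.0943, and was under 0.05 in 15 of them. The exceptions were the fit of only the 2 groups compared (0.0943), the replicate block (0.0579) and the fit without hyp/hyp replicate 2 (0.0688). The difference lies on the bound of 1, and the call was also lost where its size fell under it, to -0.94 with quantile normalization, -0.94 with median-of-ratios scaling, -0.98 without hyp/hyp replicate 1, -0.99 without hyp/hyp replicate 3 and -0.91 without hyp/c-1 replicate 3.

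The other 5 of these 6 genes were AT2G42170, ADS1, MES7, AT1G19320 and AT2G23910. AT2G42170, of the actin family, measured 13.1, 13.8 and 11.3 TPM in Col, 3.03, 3.07 and 2.57 in hyp/hyp leaves and 1.04, 1.73 and 1.25 in hyp/c-1, the lowest percent of Col of the 43 in hyp/c-1, at 10.5%. AT2G23910, annotated with a Rossmann fold, measured 6.28, 8.09 and 6.24 TPM in Col, 1.88, 2.06 and 3.44 in hyp/hyp leaves and 1.21, 0.943 and 0.858 in hyp/c-1. In all 5 the 3 hyp/c-1 libraries lay under the 3 hyp/hyp libraries. The log2 differences were -0.74 for AT2G42170 (SE 0.13, adjusted p = 0.0275), -0.88 for ADS1 (SE 0.15, adjusted p = 0.0275), -0.57 for MES7 (SE 0.10, adjusted p = 0.0324), -0.88 for AT1G19320 (SE 0.17, adjusted p = 0.0376) and -0.76 for AT2G23910 (SE 0.17, adjusted p = 0.0485), all by limma. The count of 6 was 0 without hyp/hyp replicate 2, 1 without Col replicate 1, Col replicate 2, hyp/hyp replicate 3 or hyp/c-1 replicate 3, and 3 without Col replicate 3 or hyp/c-1 replicate 2. Beside ADS1, the epidermal marker sum was 477 to 577 TPM in hyp/hyp leaves and 566 to 652 TPM in hyp/c-1.

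**Figure D3:**
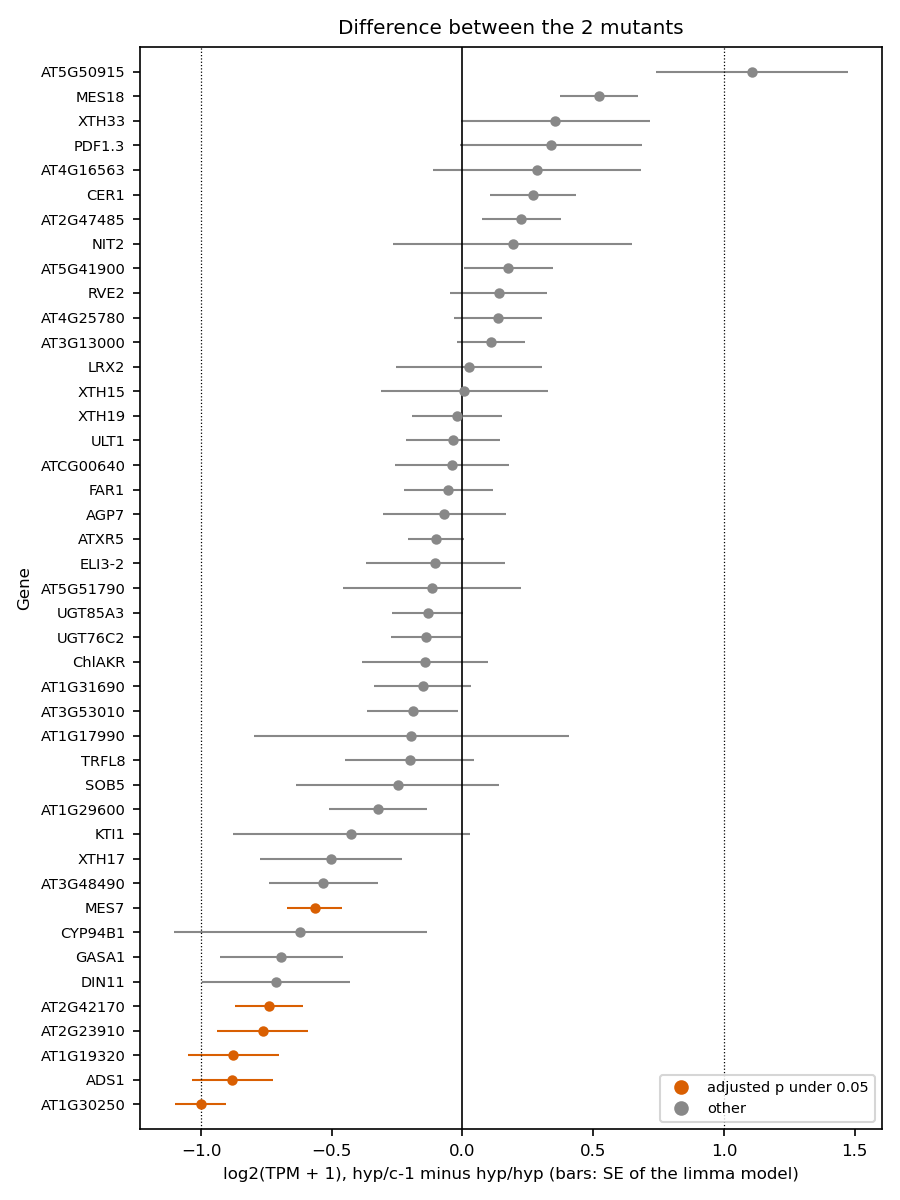
Log2(TPM + 1) difference of hyp/c-1 minus hyp/hyp for the 43 genes, sorted, with the SE of the limma model over 9 libraries as bars; dotted lines are differences of -1 and 1. The 6 genes with an adjusted p under 0.05 (orange) all lie left of 0, from -1.001 to -0.57, and AT5G50915 has the highest value, 1.11.

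The median coefficient of variation of the 43 genes between libraries of 1 genotype was 18.4% in Col, 23.2% in hyp/hyp leaves and 28.6% in hyp/c-1, against 5.95%, 8.75% and 12.01% over genes with a Col mean of at least 3 TPM, whose levels are higher. These values are a description, because the rule can admit genes through 1 high Col or 1 low mutant library and the 43 are of lower level. A high mutant library works against entry, and without hyp/c-1 replicate 2 all 43 still met the rule. In replicate 2, 13 genes were over 1.5 times as high as in both other hyp/c-1 libraries (30.2%, against 1.53% of genes with a Col mean of at least 3 TPM): XTH33, LRX2, XTH17, TRFL8, AT3G53010, XTH15, AT4G16563, ULT1, XTH19, SOB5, AT5G50915, AT5G51790 and AGP7. Replicate 1 stood out in the same way for 7 others (16.3%, against 1.60%): AT1G19320, AT1G29600, KTI1, ChlAKR, NIT2, ELI3-2 and CYP94B1. Replicate 3 stood out for 0 genes (against 0.968%). All 4 XTH genes were in the first group, and NIT2, KTI1, ChlAKR, ELI3-2 and CYP94B1 in the second. SOB5, for example, measured 2.79, 8.16 and 1.99 TPM in the 3 hyp/c-1 libraries, and KTI1 3.57, 1.105 and 0.751 TPM. What the plants or libraries shared is not given in the labels and its part was not tested.

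**Figure D4:**
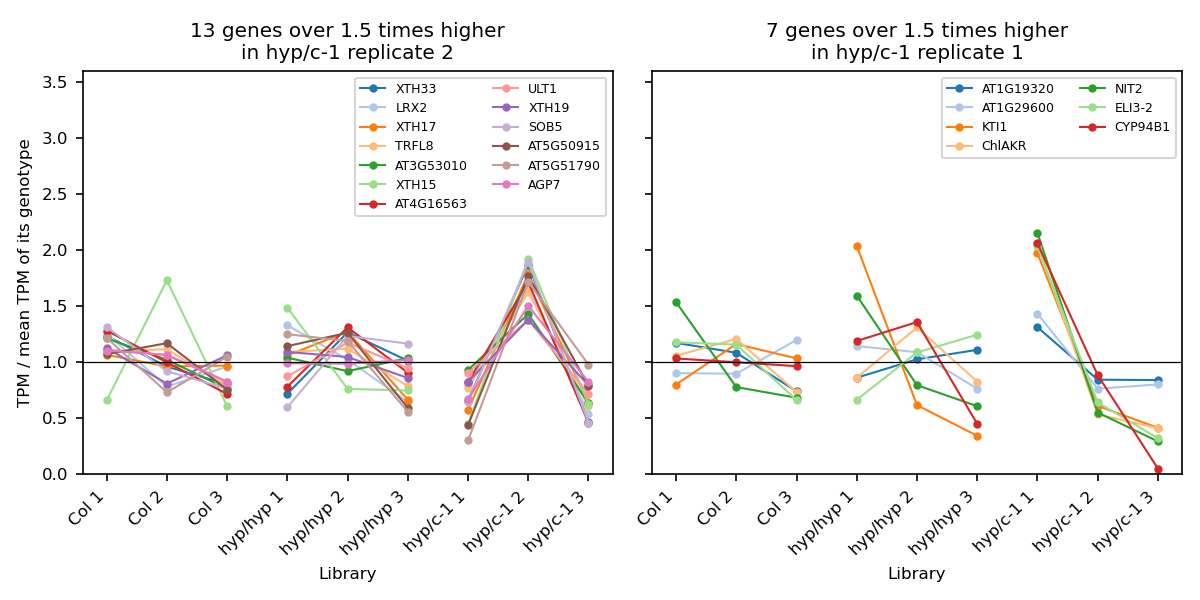
TPM relative to the mean of its genotype for the genes over 1.5 times higher in 1 hyp/c-1 library than in both others; left, 13 genes in replicate 2, and right, 7 genes in replicate 1. Lines join libraries of 1 genotype only for reading, since replicates have no order. The peaks in hyp/c-1, at replicate 2 in the left panel and replicate 1 in the right, follow from how the genes were picked.

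The 42 genes with a place in the assembly were spread over all chromosomes: 13 on chromosome 1 (31.0%, against 26.3% of genes with a Col mean of at least 3 TPM), 7 on 2 (16.7%, against 15.1%), 5 on 3 (11.9%, against 20.04%), 6 on 4 (14.3%, against 15.2%) and 11 on 5 (26.2%, against 23.3%). No 2 of them were adjacent. Of the 84 genes that flank them 49 were tested, and 1 was called lower and 0 higher in each mutant. For all genes tested, the lower share was 0.503% in hyp/hyp leaves and 0.583% in hyp/c-1, and the higher share 2.36% and 2.61%. A count of 1 in 49 is too small to set against these shares. The flanking gene called in hyp/hyp was AT1G30260, beside AT1G30250, with means of 48.8 TPM in Col, 23.8 in hyp/hyp leaves and 24.998 in hyp/c-1, and the one called in hyp/c-1 was UGT85A1, near UGT85A3, with 24.7, 13.6 and 11.1 TPM. The median log2 difference of flanking genes was -0.04 in hyp/hyp leaves and -0.09 in hyp/c-1, against 0.06 and -0.02 over all genes tested. The genes were shorter than others, with a median span of 2067 bp against 2474 bp and a median of 3 exons against 5, and 9 had a single exon (21.4%, against 11.7%).

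Several pathways had no gene among the 43. Of 12 cold-regulated genes tested, 2 were called higher in hyp/hyp leaves and 1 lower in hyp/c-1, of 17 auxin-responsive genes 1 was called higher in hyp/hyp, and of 9 gibberellin and brassinosteroid synthesis genes 1 was called lower in hyp/c-1. Among 11 aliphatic glucosinolate genes 2 were called higher in hyp/c-1, as were 2 of 8 flavonoid genes and 3 of 19 light-harvesting genes. Over all genes tested, 0.503% were called lower and 2.36% higher in hyp/hyp leaves, and 0.583% and 2.61% in hyp/c-1. The light-harvesting count was 3 whichever library was left out, the glucosinolate count 1 to 4 (lowest without Col replicate 2, highest without hyp/c-1 replicate 2) and the flavonoid count 1 to 3 (lowest without Col replicate 2, highest without hyp/c-1 replicate 3). The higher cold-regulated count in hyp/hyp was 0 without Col replicate 1 or with quantile normalization and 3 without Col replicate 3, the auxin count was 2 without Col replicate 2, and the lower hormone synthesis count in hyp/c-1 was 0 without hyp/c-1 replicate 3.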

How the data were processed

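The authors deposited 1 table of TPM values for 9 libraries, each summing to 1000000, with no replicates pooled. The submitters' processing notes name fastp 0.20.1, HISAT2 2.1.10, DESeq2 1.26.0 and the build TAIR10, without roles; strand handling and the program that made the TPM are not given in the sources used here. TPM steps gave whole reads for 99.988% of 141165 values under 1000 reads (within 0.02 of a read) with the whole gene span as length, so levels compared between genes are per span, introns included. For a span of 2000 bp, 3 reads corresponded to 0.0825 to 0.149 TPM depending on the library, a floor that covers only counting error.

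Libraries were grouped by labelled genotype. limma 3.58.1 in R 4.3.3 was fitted to log2(TPM + 1) of the 17682 genes averaging 1 TPM or more, with 1 mean per genotype and eBayes with trend, leaving 6 residual degrees of freedom; Benjamini-Hochberg adjustment was over all genes tested, and calls needed an adjusted p under 0.05 with a log2 difference of 1 or more in either direction. Differences on this scale understate changes of low genes. The fit was tested on simulated data. All 43 genes passed the expression minimum. Names and coordinates came from RefSeq TAIR10.1, which matched 27445 genes and 42 of the 43; 210 were unmatched.

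The members, the gene lists and the markers were chosen with earlier results of these data known. The genes described in most detail were ATXR5, the 12 with the lowest percent of Col in the higher mutant, the 6 of highest Col level, those called between the mutants, those on a pathway list, the XTH family and the 3 nearest the bound on each side; the remaining genes are given by means or percents, and those described for single libraries were picked after their values were seen. Python 3.11.15 with pandas 2.3.3, numpy 2.4.6 and matplotlib 3.10.9 did the rest. Alternatives were another pseudocount, expression minimum, normalization or model, other bounds of the rule, leaving out each library and, added after seeing the data, voom on recovered reads.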

Additional observations from a re-analysis of the deposited data

How the results depend on the processing

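The number of genes chosen depended most on the bounds: 20 if every mutant library had to be at most 0.5 times the Col mean, 21 at a bound of 0.4, 125 at 0.6, 80 with a Col mean of at least 1 TPM and 19 with at least 10 TPM; it was 52 with medians, 51 with median-of-ratios scaling and 41 to 57 when 1 library was left out. Against Col, calls among the 43 ran from 23 to 31 for hyp/hyp and 27 to 37 for hyp/c-1 when 1 library was left out, and with a mean of at least 5 TPM they were 16 in each comparison, of 19 genes tested. Between the mutants, the count of 1 called gene became 5 with a pseudocount of 0.1, 3 with voom, 6 by adjusted p alone, 0 with quantile normalization, median-of-ratios scaling, only the 2 groups or the replicate block, and 0 to 3 when 1 library was left out. The count of 6 at an adjusted p under 0.05 was 3 with no expression minimum, 3 with a mean of at least 5 TPM, 3 with voom, 0 with only the 2 groups and 0 with the replicate block, and 0 to 7 when 1 library was left out. The causes of these shifts were not tested, and some settings held fewer genes or libraries. Direction was kept by all 6 genes in every setting that tested them. The labels do not say whether same-numbered libraries were handled together, and the values cannot settle it. Correlations of deviations of same-numbered libraries ran from -0.272 to 0.1003. Against Col the replicate block gave 30 and 38 calls, while between the mutants it brought both counts to 0. The 3 libraries per genotype and 3 to 14 reads for the shallowest values limit the precision for the lowest genes.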
